A study of Mus musculus with 2 samples.

Results

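*Tcf7*, *Lef1*, *Id3*, *Klf2*, *Il7r*, *Slamf6*, *Ccr7* and *S1pr1* were followed as 8 genes of T cell stemness and lymphoid homing, of 32285 genes counted in single splenic immune cells of mice infected with LCMV-cl13, the clone 13 strain of lymphocytic choriomeningitis virus, which sets up a chronic infection. The genes were chosen by name for their known roles, with earlier results of these data known. They were read in CD8 T barcodes (at least 1 UMI of *Cd3e* and of *Cd8b1*) and CD4 T barcodes (at least 1 UMI of *Cd3e* and of *Cd4*, none of *Cd8b1*), all without *Cd79a* or *Csf1r*. Each T cell class was divided by *Gzmb*, the cytotoxic granule protease granzyme B, into barcodes with 0 UMIs and barcodes with at least 1. B barcodes (at least 1 UMI of *Cd79a* and of *Ms4a1*) served as the other lymphocyte class. A barcode marks a droplet, and a UMI (unique molecular identifier) marks a captured transcript.

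C57BL/6 mice carried either the wild type *Ptpn22* allele (PEP-WT) or, on both chromosomes, the R619W change in PEP, the phosphatase that *Ptpn22* encodes (PEP-619WW, made by CRISPR/Cas9 editing of the germline). All mice were infected, and spleens were taken 8 days later. Live CD45+ splenocytes of 4 to 5 mice of matched age and sex were pooled per genotype and sorted, so each genotype is 1 library, no value has a replicate error, and no test between genotypes was possible. The sample labels give liver, a human T cell line and tumour-infiltrating cells, whereas the protocols and the study design describe splenocytes of infected mice. The R619W change is a change of 1 residue, so counts of *Ptpn22* do not check the genotype of a library.

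TCF-1, encoded by *Tcf7*, and the related LEF-1 are DNA-binding partners of β-catenin that maintain naive T cells and, in chronic infection, the self-renewing T cells from which effector cells are replenished. These cells also carry the IL-7 receptor, and the naive among them recirculate: CCR7 brings a cell into the T cell zone of lymphoid organs, S1PR1 lets it leave, and KLF2 turns on the gene for S1PR1. T cells that become cytotoxic effectors turn off most of this program as they turn on granzymes.

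RefSeq promoter windows on GRCm38.p6 were found for 6 of the 8 genes, with 10 windows in all; *Ccr7* and *S1pr1* had none in the table used. Printed below are 280 bases for *Tcf7* and *Id3*, which differed most between CD8 T cells without and with *Gzmb*, and for *Klf2*, which differed least there. Each window runs from 250 bases before a transcript start to 30 bases after it and is written 5′ to 3′ on the strand of the gene. Capitals mark GTAAACA, the core bound by forkhead factors, and CCACCC or its reverse complement GGGTGG, the core bound by KLF factors. The *Tcf7* window lies at chr11:52282566-52282845 on the minus strand, the *Id3* window at chr4:136143572-136143851 on the plus strand and the *Klf2* window at chr8:72318812-72319091 on the plus strand.
Tcf7: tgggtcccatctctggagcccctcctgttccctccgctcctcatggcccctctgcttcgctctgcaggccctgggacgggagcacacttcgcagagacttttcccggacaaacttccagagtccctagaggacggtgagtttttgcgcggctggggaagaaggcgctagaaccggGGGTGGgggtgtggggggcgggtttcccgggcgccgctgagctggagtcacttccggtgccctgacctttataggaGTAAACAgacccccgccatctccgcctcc
Id3: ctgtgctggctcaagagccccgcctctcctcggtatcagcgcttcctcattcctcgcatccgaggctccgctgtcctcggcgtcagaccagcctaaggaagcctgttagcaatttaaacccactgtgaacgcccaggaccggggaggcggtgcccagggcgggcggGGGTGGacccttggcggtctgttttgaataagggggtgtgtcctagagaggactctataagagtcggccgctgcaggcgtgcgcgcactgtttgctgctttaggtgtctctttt
Klf2: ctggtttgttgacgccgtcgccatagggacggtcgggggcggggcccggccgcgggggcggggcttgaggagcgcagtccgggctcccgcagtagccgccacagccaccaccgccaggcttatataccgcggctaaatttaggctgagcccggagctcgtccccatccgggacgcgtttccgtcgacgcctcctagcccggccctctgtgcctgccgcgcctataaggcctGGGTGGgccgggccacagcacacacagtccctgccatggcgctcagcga

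*Tcf7* had 2 windows, and the one printed is the only one of them with either core; the window at chr11:52282985-52283264 held neither. In the printed window the forkhead core stood at base 2 after the start, and no window of the other 5 genes held it. Over 32851 mouse windows of 300 bases, 3.65% held it on either strand. The KLF core began 75 bases before the same *Tcf7* start, 84 bases before that of *Id3* and 19 bases before that of *Klf2*. It was also found in 3 of the 4 *Lef1* windows, and 31.5% of all windows held it. The TCF/LEF core CTTTGAA (reverse complement TTCAAAG), present in 5.14% of all windows, was in none of the 10. These matches describe letters within a short window and say nothing about binding.

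The PEP-WT library held 14821 barcodes and 77916082 UMIs (median 2832 UMIs per barcode), and the PEP-619WW library 8576 barcodes and 56745578 UMIs (median 3293); 39 barcode sequences occurred in both. The CD8 T class held 1000 PEP-WT and 636 PEP-619WW barcodes, the CD4 T class 221 and 172, and the B class 6937 and 3144. The labelled classes held their markers: summed over *Cd3d*, *Cd3g*, *Trac*, *Trbc2*, *Cd2* and *Lck*, T cell classes had 5049 to 6595 CPM (UMIs of a gene per 1000000 UMIs of the class) against 511 (PEP-WT) and 445 (PEP-619WW) in B barcodes. *Cd8a* ranged from 334 to 381 CPM in CD8 T classes and stayed at or below 9.01 in CD4 T classes. A further set of counts, called run 2 here, exists for each genotype, and no source used here says how it relates to the first set. Run 2 held 21 CD8 T, 7 CD4 T and 2 B barcodes for PEP-WT, and there the melanocyte gene *Pmel* reached 48.4 CPM (0.449 in the PEP-WT library of run 1). For PEP-619WW run 2 held 319, 280 and 503 such barcodes, with *Pmel* at 2.45 CPM (0.652 in run 1). The study's methods give the barcode numbers of run 2, not those of run 1. Run 2 was kept apart, and all values are from run 1 unless run 2 is named.

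RNA of other cells was present in unequal amounts. The erythroid markers *Hbb-bs*, *Hba-a1* and *Klf1* summed to 1298 CPM in PEP-WT CD8 T barcodes without *Gzmb* and to 124 in those of PEP-619WW, and to 2288 and 28.6 in CD4 T barcodes without *Gzmb*. The neutrophil markers *Ly6g*, *S100a8*, *S100a9* and *Retnlg* summed to 1924 and 370 CPM in the first class and to 134 and 2057 in the second. Among these, *Ly6g* was at 0 in PEP-619WW CD8 T barcodes without *Gzmb*, and *Klf1* and *Ly6g* were at 0 in PEP-WT CD4 T barcodes without it. In neutrophil barcodes (*Ly6g*, without *Cd3e*, *Cd79a* or *Csf1r*), *Il7r* stood at 16.7 CPM in PEP-WT and 7.97 in PEP-619WW and *Tcf7* at 7.69 and 2.39, whereas *Klf2* reached 1252 and 1401. The part of these unequal amounts in the genotype values below was not tested. Leaving out T cell barcodes with UMIs of *Ms4a1*, *Cd79b*, *Lyz2*, *C1qa* or *S100a8* or with at least 5 hemoglobin UMIs kept all of the genotype directions in the CD8 T class without *Gzmb* except that of *Id3* and moved their median from -0.29 to -0.55. In the CD4 T class without *Gzmb* it left 4 in place of 7 of the 8 genes above 0 and moved the median from 0.24 to 0.079.

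First, the share of T cells without *Gzmb* differed between the libraries. Of PEP-WT CD8 T barcodes, 362 of 1000 had no *Gzmb* UMI (36.2%, exact 95% binomial interval 33.2 to 39.3%), and of PEP-619WW CD8 T barcodes 91 of 636 (14.3%, 11.7 to 17.3%). All intervals given here cover counting error only, not the variation between mice or libraries. Those of UMI sums and ratios also leave out the variation between cells. Since *Gzmb* is missed more often in shallow barcodes, 2000 UMIs were drawn from each barcode and the gates were read again in them. Below that depth were 40 CD8 T barcodes of PEP-WT and 23 of PEP-619WW. Of the 528 and 320 barcodes that passed the CD8 T gate in the drawn UMIs, 44.7% and 20.6% had no *Gzmb*. The order of the libraries was the same at both depths. Of CD4 T barcodes, 205 of 221 in PEP-WT (92.8%) and 142 of 172 in PEP-619WW (82.6%) had no *Gzmb*. *Gzmb* UMIs were also found in 4.56% of PEP-WT and 9.16% of PEP-619WW B barcodes, 2.26% and 3.41% after thinning. In CD4 T barcodes *Gzmb* was found in 7.24% (4.19 to 11.5%) of PEP-WT and 17.4% of PEP-619WW. After thinning the shares were 1.87% of 107 and 19.4% of 72. The interval of the PEP-WT share before thinning included the share in B barcodes. The 16 PEP-WT barcodes with *Gzmb* held 6055 CPM of *Ccl5*, against 125 in those without, and 2027 of *Nkg7*, against 252. They held 0 UMIs of *Gzma* (upper limit 33.2 CPM), against 13.1 CPM in those without. The PEP-619WW CD4 T barcodes with *Gzmb* held 933 CPM of *Gzma*.

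Levels are given in CPM, with the PEP-WT value before the PEP-619WW value unless stated. Among transcription factors, *Tcf7* was high in both T cell classes without *Gzmb*: 394 (exact 95% Poisson interval 367 to 424) and 312 (272 to 356) in CD8 T barcodes, and 435 (397 to 477) and 472 (430 to 518) in CD4 T barcodes. With *Gzmb* it was at 32.2 (27.3 to 37.8) and 30.1 (25.4 to 35.4) in CD8 T barcodes, and at 15.0 and 10.2 in B barcodes. B barcodes without a *Cd3e* UMI, a gate chosen after the values were seen, had 5.50 and 4.25. The *Tcf7* level thus differed far more between the CD8 T classes than between the libraries. A *Tcf7* UMI was found in 76.2% (71.5 to 80.5%) of PEP-WT and 62.6% (51.9 to 72.6%) of PEP-619WW CD8 T barcodes without *Gzmb*, and in 50.8% and 25.8% after thinning. The shares in neutrophil barcodes, which should lack it, were 2.09% (median depth 3365 UMIs) and 0.758% (3963.5 UMIs), against median depths of 3861 and 6022 UMIs in the CD8 T class.

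*Lef1* was likewise higher in CD8 T barcodes without *Gzmb* than in those with it, with a smaller step. It stood at 236 (214 to 258) and 185 (154 to 220) in CD8 T barcodes without *Gzmb*, at 171 (147 to 197) and 177 (152 to 205) in the matching CD4 T barcodes, and at 71.4 (64.0 to 79.5) and 82.9 (75.0 to 91.4) in CD8 T barcodes with *Gzmb*. B barcodes held 12.8 and 11.7, the lowest *Lef1* level of the 5 classes in both libraries. *Id3*, an inhibitor of E proteins that is known from memory precursor and self-renewing T cells, had the widest range within T cells. Its level was 139 (123 to 157) and 124 (99.3 to 153) in CD8 T barcodes without *Gzmb*, 125 (105 to 148) and 156 (133 to 183) in the CD4 T class without it, and 6.61 and 8.04 (31 and 39 UMIs) in CD8 T barcodes with it. B barcodes held 75.3 and 64.4, between the CD8 T levels without and with *Gzmb*.

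*Klf2* did not follow *Gzmb* in this way. CD8 T barcodes had 552 (519 to 586) and 445 (396 to 497) without *Gzmb* and 512 (492 to 533) and 480 (460 to 500) with it, and B barcodes had 436 (429 to 443) and 441 (432 to 450). CD4 T barcodes without *Gzmb* held the least, 294 (262 to 328) and 357 (320 to 396). This was the lowest *Klf2* level of the 5 classes in both libraries.

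Among the receptors, *Il7r*, the α chain of the IL-7 receptor, was at 255 (233 to 279) and 217 (183 to 254) in CD8 T barcodes without *Gzmb*, at 206 (180 to 235) and 301 (267 to 337) in the CD4 T class without it and at 56.7 (50.1 to 64.0) and 65.2 (58.2 to 72.8) in CD8 T barcodes with it. B barcodes held 15.6 and 16.4. *Slamf6*, an adhesion and signaling receptor of the SLAM family, was at 266 (243 to 290) and 243 (207 to 282), 273 (243 to 306) and 393 (354 to 434), and 58.0 (51.3 to 65.3) and 63.3 (56.4 to 70.8) in the same 3 classes. B barcodes held 104 and 88.7, more *Slamf6* than CD8 T barcodes with *Gzmb* and less than both T cell classes without it.

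*Ccr7* stood at 88.3 (75.5 to 103) and 57.8 (41.3 to 78.6) in CD8 T barcodes without *Gzmb*, 68.1 (53.4 to 85.6) and 59.3 (45.0 to 76.7) in CD4 T barcodes without it and 10.0 (7.37 to 13.3) and 5.78 (3.84 to 8.35) in CD8 T barcodes with it. B cells also enter lymphoid organs through CCR7, and B barcodes held 48.0 and 50.8. *S1pr1* varied least among the receptors: 142 (126 to 160) and 118 (94.2 to 147) without *Gzmb* in CD8 T barcodes, 98.1 (89.3 to 107) and 140 (130 to 151) with it, 134 (113 to 158) and 154 (131 to 181) in CD4 T barcodes without it, and 106 and 115 in B barcodes. The order of its classes was not the same in both libraries.

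**Figure D1:**
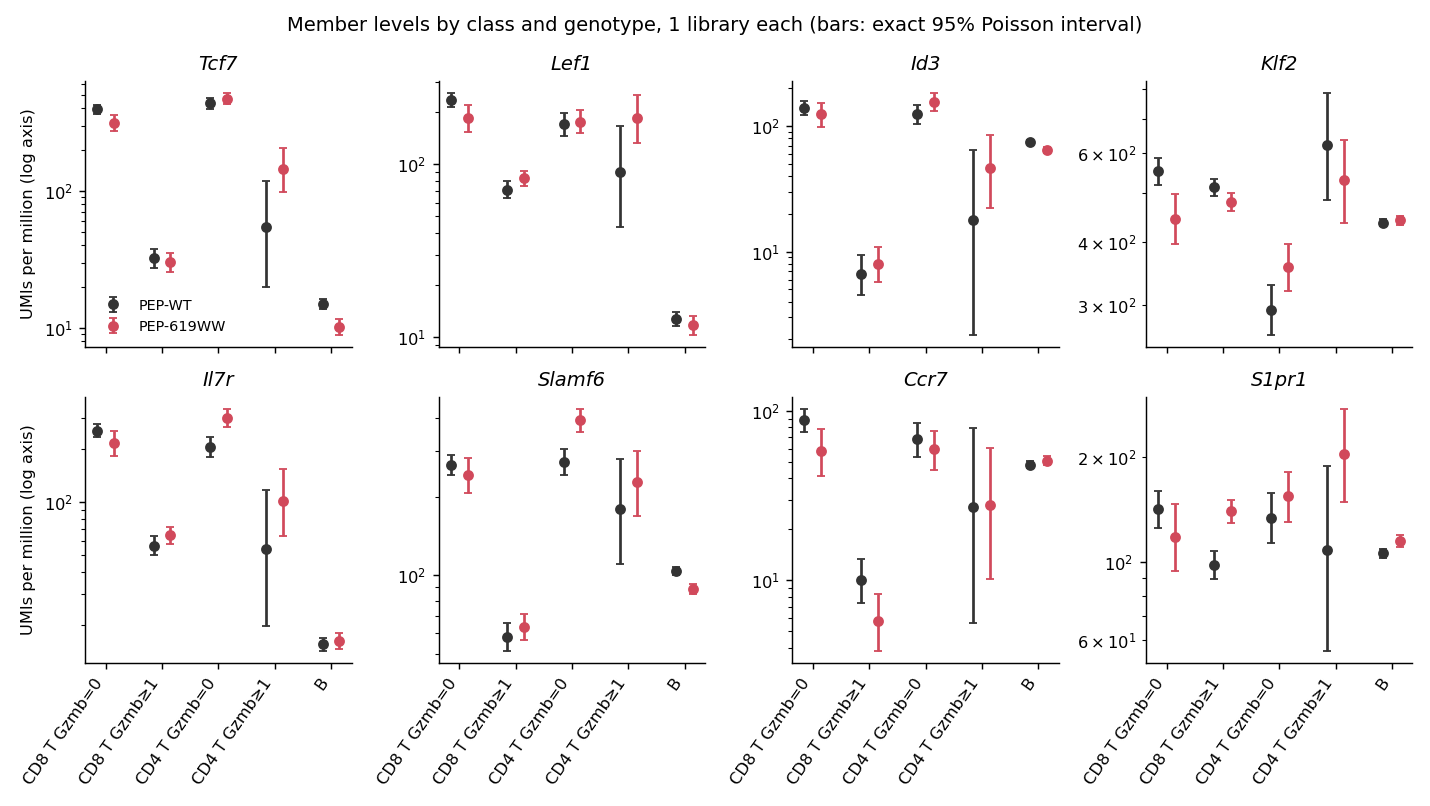
CPM (log axis) of each gene in the 5 classes, with PEP-WT in black and PEP-619WW in red. Points are 1 library each and bars are exact 95% Poisson intervals. *Tcf7* falls from 394 and 312 to 32.2 and 30.1 between CD8 T barcodes without and with *Gzmb*, while *Klf2* stays between 445 and 552 in both.

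The small CD4 T class with *Gzmb* (16 and 30 barcodes) gave 6 PEP-WT and 31 PEP-619WW UMIs of *Tcf7*, or 54.1 (19.8 to 118) and 144 (97.7 to 204) CPM. *Klf2* had 69 and 114 UMIs there (622 and 529 CPM), and *Id3* had 2 and 10 UMIs. Intervals of most genes overlapped between the libraries in this class.

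Within each library, T cells without *Gzmb* were compared with T cells with it. In CD8 T cells 6 of the 8 genes were at least 1.5-fold higher without *Gzmb* in both libraries and none was that much lower. Over all genes with at least 50 UMIs in the sums compared, the share at least 1.5-fold higher was 11.1% of 8131 genes in PEP-WT and 8.5% of 7766 genes in PEP-619WW. The median of the 8 log2 ratios was 2.18 in PEP-WT and 1.84 in PEP-619WW, against -0.05 and -0.06 over all genes. Both sums come from the same library, and barcodes without *Gzmb* were shallower (median 3861 against 5086 UMIs in PEP-WT and 6022 against 7157 in PEP-619WW).

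*Id3* and *Tcf7* differed most. *Id3* was 21.1-fold higher without *Gzmb* in PEP-WT (95% interval 14.5 to 31.7) and 15.4-fold higher in PEP-619WW (10.5 to 23.2). *Tcf7* was 12.2-fold (10.3 to 14.7) and 10.4-fold (8.36 to 12.9) higher, and *Ccr7* 8.81-fold (6.34 to 12.4) and 10.0-fold (6.02 to 16.8). *Slamf6* was 4.58-fold and 3.83-fold higher, *Il7r* 4.49-fold and 3.32-fold, and *Lef1* 3.30-fold and 2.23-fold. The egress pair stood apart: the log2 ratio of *Klf2* was 0.11 (0.00 to 0.21) in PEP-WT and -0.11 (-0.29 to 0.06) in PEP-619WW, and that of *S1pr1* was 0.53 (0.31 to 0.75) and -0.24 (-0.59 to 0.09).

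**Figure D2:**
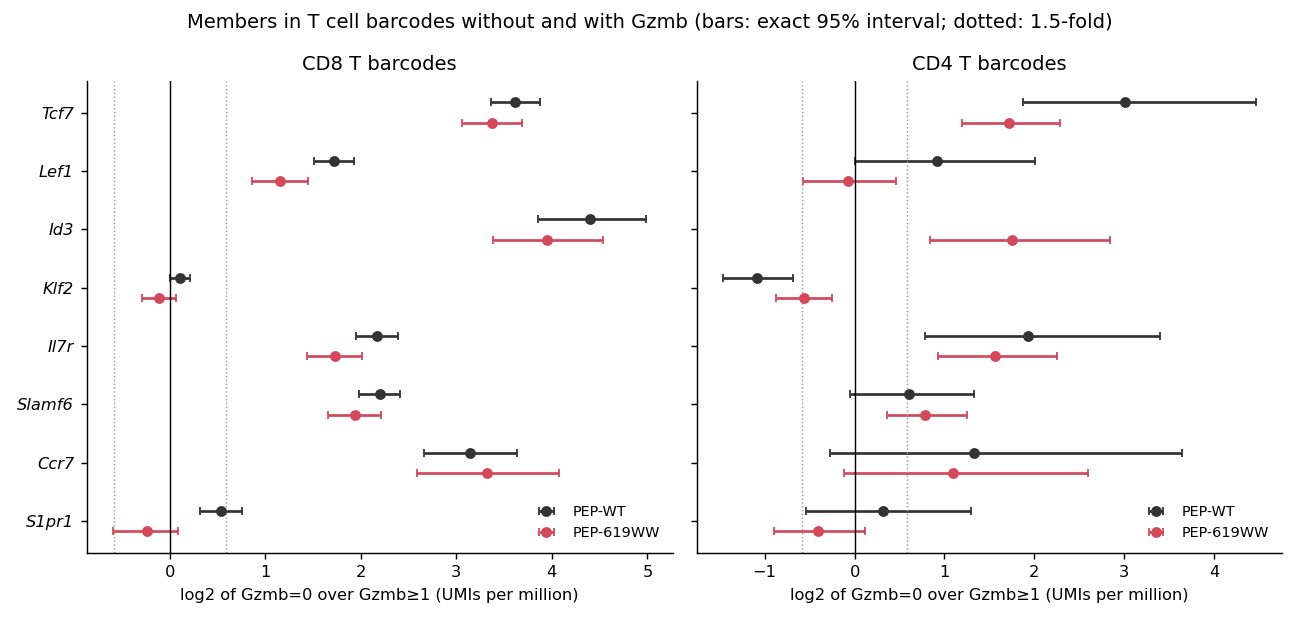
Log2 ratio of CPM in T cell barcodes without *Gzmb* over those with it, for CD8 T (left) and CD4 T (right) barcodes, PEP-WT in black and PEP-619WW in red. Bars are exact 95% intervals and dotted lines mark 1.5-fold. In CD8 T barcodes *Id3* and *Tcf7* lie farthest to the right (4.40 and 3.61 in PEP-WT) and *Klf2* and *S1pr1* lie within the dotted lines, with *S1pr1* in PEP-WT at 0.53 and its interval right of 0. *Id3* in PEP-WT CD4 T barcodes is not drawn because the class with *Gzmb* held 2 UMIs.

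In CD4 T cells the class with *Gzmb* was small, and the intervals were wide. Higher without *Gzmb* by at least 1.5-fold were 5 of 7 genes in PEP-WT (20.2% of all genes) and 5 of 8 in PEP-619WW (14.4%), and lower were 1 gene in PEP-WT (16.3%) and none in PEP-619WW (11.7%). *Tcf7* had log2 ratios of 3.01 (1.88 to 4.46) and 1.72 (1.19 to 2.29), and *Il7r* of 1.93 (0.79 to 3.39) and 1.56 (0.93 to 2.25). *Klf2* went the other way, with -1.08 (-1.46 to -0.68) in PEP-WT and -0.57 (-0.88 to -0.25) in PEP-619WW. The PEP-WT value of *Klf2* was 0.012 (-0.26 to 0.29) when barcodes with *Cd79a* or *Csf1r* were kept in.

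Related genes were read beside the 8. Of 14 companions known from naive or stem-like T cells, 13 reached 50 UMIs in the PEP-WT CD8 T comparison, and 11 were at least 1.5-fold higher without *Gzmb* and none lower; in PEP-619WW these numbers were 10, 8 and 0. *Dapl1* was at 154 without and 14.9 with *Gzmb* in PEP-WT and at 46.2 and 6.60 in PEP-619WW. Of 15 effector genes, all 15 measured in PEP-WT and all 14 measured in PEP-619WW were at least 1.5-fold lower without *Gzmb*, with 30.8 against 1452 CPM for *Gzma* in PEP-WT. Of all genes, 11.1% in PEP-WT and 8.5% in PEP-619WW were higher by that much, and 14.8% and 13.9% were lower.

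The signal chain below the IL-7 receptor was read in the same CD8 T barcodes. Of its 9 genes, 3 were higher and 1 was lower in PEP-WT, beside 11.1% of all genes higher and 14.8% lower. In PEP-619WW 2 were higher and 2 lower, beside 8.5% and 13.9%. Counts this small among 9 genes are not read as a result about the chain. *Bcl2*, a survival gene downstream of STAT5, had log2 ratios of 1.43 (1.24 to 1.62) and 1.06 (0.80 to 1.31), and *Socs1*, a feedback inhibitor of the chain, 1.06 (0.77 to 1.35) and 1.15 (0.71 to 1.58). *Jak3*, the kinase bound to the common γ chain, pointed in opposite directions, at 0.69 (0.01 to 1.36) and -1.23 (-2.58 to -0.14). Of the 6 relatives and cofactors of TCF-1 and LEF-1, 3 were measured and none differed by 1.5-fold in either library.

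Relatives of *Slamf6*, *Klf2*, *Id3* and *S1pr1* were read beside the same shares of all genes (11.1% higher and 14.8% lower in PEP-WT, 8.5% and 13.9% in PEP-619WW). Of 7 SLAM genes in PEP-WT, *Cd84* was higher (0.67, 0.38 to 0.95) and 4 were lower without *Gzmb*, among them *Cd48* at -1.21 (-1.36 to -1.06). In PEP-619WW none of 6 SLAM genes was higher and 2 were lower. Of the measured KLF, ID and S1P receptor genes none was higher in either library, and 4 of 7 were lower in PEP-WT and 3 of 6 in PEP-619WW. *Id2*, the ID gene of effector cells, was at -2.07 (-2.26 to -1.89) in PEP-WT and -1.55 (-1.77 to -1.34) in PEP-619WW, opposite to *Id3*, and *S1pr5* was at -2.41 (-3.90 to -1.22) in PEP-WT, with 0 and 35 UMIs in PEP-619WW. Of 6 egress and retention genes, *Cxcr4* and *Cd69* were higher in PEP-WT, and in PEP-619WW *Cxcr4* was higher and *Itgb7*, an integrin chain, was lower, which for 1 of 6 genes in each direction is near those shares.

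The genotypes were then compared class by class, as log2 of PEP-619WW over PEP-WT, and values written as one against another give PEP-619WW first. In CD8 T barcodes without *Gzmb* all 8 log2 ratios were below 0, between -0.13 and -0.61, with a median of -0.29 against 0.03 over all 5583 genes measured. Only *Ccr7* passed 1.5-fold (57.8 against 88.3 CPM, log2 ratio -0.61, -1.15 to -0.11), where 6.57% of all genes were at least that much lower and 7.11% higher. *Tcf7* (-0.34, -0.56 to -0.12), *Lef1* (-0.35, -0.64 to -0.06) and *Klf2* (-0.31, -0.50 to -0.13) had intervals that left out 0. Those of *Il7r* (-0.24, -0.51 to 0.03), *S1pr1* (-0.26, -0.64 to 0.10), *Id3* (-0.17, -0.54 to 0.19) and *Slamf6* (-0.13, -0.39 to 0.12) included it.

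This comparison rested on 91 PEP-619WW barcodes, and the genes past 1.5-fold depended on the gate. With barcodes holding *Cd79a* or *Csf1r* kept in (127 against 487 barcodes) none of the 8 passed 1.5-fold, all 8 lay below 0 and the median was -0.25. With gates of at least 2 UMIs (42 against 149) *Klf2* passed it in place of *Ccr7*. With the stricter exclusion of other lineages (41 against 218 barcodes) 4 genes were at least 1.5-fold lower and *Id3* lay above 0, at 140 against 119 CPM. With barcodes thinned to 2000 UMIs (66 against 236) 4 genes were at least 1.5-fold lower and *Klf2* lay above 0, at 848 against 752. The shares of all genes past 1.5-fold were not computed with these other gates, so no background stands beside these counts. The class also differed in other genes. *Mki67*, a gene of dividing cells, was at 104 (90.0 to 119) and 261 (225 to 302) CPM, and its part in these values was not tested. Cells whose *Gzmb* was missed can also be in this class. *Gzmb* was found in 63.8% of PEP-WT and 85.7% of PEP-619WW CD8 T barcodes. Barcodes of the class without a *Tcf7* UMI made up 23.8% in PEP-WT and 37.4% in PEP-619WW. They held 3615 and 7511 CPM of *Ccl5*. The part of missed *Gzmb* in these values and in the lists below was not tested.

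Companions and effector genes in that class lay mostly within 1.5-fold, and those past it were lower among companions and higher among effector genes, beside 6.57% of all genes lower and 7.11% higher. Of 12 companions measured, none was higher and 4 were lower in PEP-619WW: *Dapl1* (46.2 against 154), *Bach2* (20.2 against 37.6), *Xcl1* (173 against 270) and *Actn1* (76.5 against 115). *Tox*, *Bcl2* and *Satb1* stayed within 1.5-fold. Of 10 effector genes measured, 4 were higher and none lower: *Cxcr6* (78.0 against 28.2), *Ccr2* (52.0 against 20.4), *Id2* (270 against 138) and *Ccl5* (2427 against 1396). *Gzma* (31.8 against 30.8) and *Nkg7* (809 against 940) were among the 6 others. *Ccr2* is also a myeloid marker. The 5 myeloid markers summed to 449 against 285 CPM in this class, with *Lyz2* at 378 against 246 and *Csf1r*, which the gate excludes, at 0, and their part in the *Ccr2* value was not tested. None of 7 IL-7 chain genes, 3 TCF/LEF relatives and cofactors or 5 SLAM genes passed 1.5-fold in either direction. Of 5 KLF, ID and S1P receptor genes *Id2* did so, and none of 6 egress and retention genes.

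In CD8 T barcodes with *Gzmb* the 8 genes did not share a direction. *S1pr1* was higher in PEP-619WW (0.51, 0.34 to 0.69) without reaching 1.5-fold, in a class that was deeper there (median 7157 against 5086 UMIs). In barcodes thinned to 2000 UMIs it was at 183 against 159 CPM, with 93 UMIs in each library, and was detected in 26.4% against 27.1% of barcodes. With so few UMIs the thinned values cannot tell a difference of that size from none. Thinning also changed which barcodes passed the gates, and the part of depth was not tested. *Ccr7* was lower (5.78 against 10.0, or 28 against 47 UMIs; -0.80, -1.53 to -0.09) and was the only gene of the 8 past 1.5-fold, where 3.88% of 8845 genes were that much lower and 5.49% higher. *Lef1* (0.21, 0.00 to 0.43) and *Il7r* (0.20, -0.04 to 0.44) lay slightly above 0, and *Tcf7* (-0.10, -0.44 to 0.24) could not be told from 0 at this depth. After thinning *Lef1* lay below 0, at 59.1 against 90.8. The median was 0.16, with 5 of 8 genes above 0. It was -0.087, with 3 of 8 above 0, when barcodes with *Cd79a* or *Csf1r* were kept in.

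In CD4 T barcodes without *Gzmb* 7 of 8 log2 ratios were above 0 and none passed 1.5-fold (7.25% of 5144 genes were that much higher and 7% lower). *Il7r* was at 301 against 206 (0.55, 0.29 to 0.80), *Slamf6* at 393 against 273 (0.52, 0.30 to 0.75) and *Klf2* at 357 against 294 (0.28, 0.06 to 0.51), all with intervals above 0. *Tcf7* (0.12, -0.07 to 0.31) and *Lef1* (0.05, -0.26 to 0.36) did not differ beyond counting error. With the stricter exclusion of other lineages (72 against 129 barcodes) 4 of 8 genes lay above 0, the median was 0.079 in place of 0.24, and every one of the 8 intervals included 0. With gates of at least 2 UMIs 4 of 7 lay above 0, the median was 0.044 and *Il7r* passed 1.5-fold. With barcodes holding *Cd79a* or *Csf1r* kept in (177 against 273) *Il7r* also passed it, 7 of 8 lay above 0 and the median was 0.37. After thinning (58 against 105) 4 of 6 lay above 0, with a median of 0.13. In the same class *Foxo1*, which encodes a forkhead factor upstream of *Il7r* and *Klf2*, was lower (41.9 against 68.1), as was *Igfbp4* (23.5 against 44.8), and the other 10 of 12 companions stayed within 1.5-fold. Of 4 effector genes measured, *Ccl5* (343 against 125) and *Id2* (204 against 112) were higher and *Ifng* was lower (65.5 against 123). *Stat5b*, the only one of 7 IL-7 chain genes past 1.5-fold, was at 76.7 against 45.7, and *Slamf7*, the only one of 5 SLAM genes, at 33.7 against 15.9. *Arrb2* was the only one of 6 egress and retention genes (75.7 against 49.4), *Id2* the only one of 5 KLF, ID and S1P receptor genes, and none of 3 TCF/LEF genes passed. In the small CD4 T class with *Gzmb*, 4 of the 8 genes reached 50 UMIs, and 2 of these, *Lef1* and *S1pr1*, were at least 1.5-fold higher. Of 928 genes, 9.81% were that much higher and 13.3% lower. *Lef1* was at 1.04 (0.02 to 2.21), from 40 against 10 UMIs. *S1pr1* was at 0.92 (-0.03 to 1.97), from 44 against 12 UMIs, with an interval that included 0.

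B barcodes had the most UMIs and the narrowest intervals. None of the 8 genes passed 1.5-fold (5.52% of 11875 genes were that much higher and 3.95% lower). *Slamf6* (-0.23, -0.31 to -0.15) and *Id3* (-0.23, -0.32 to -0.13) were slightly lower in PEP-619WW, *S1pr1* was slightly higher (0.12, 0.04 to 0.19) and *Klf2* had a ratio near 0 (0.02, -0.02 to 0.05). These values changed after thinning to 2000 UMIs, which also changed which barcodes passed the gates and gave each barcode equal weight. The median of the 8 was then 0.23 in place of -0.05, and the part of depth in this was not tested. *Id3* then lay above PEP-WT, at 125 against 110 CPM, and *Slamf6* was at 119 against 125. *Klf2* was at 743 against 611, with a UMI in 67.5% (65.5 to 69.5%) against 56.5% (55.0 to 58.0%) of thinned barcodes and in 77.4% against 69.0% before thinning. *S1pr1* was at 219 against 158, and *Il7r*, with 99 UMIs in 2110 barcodes against 103 in 4296, passed 1.5-fold. The order of the libraries for *Id3* in B barcodes was thus not the same before and after thinning. Marker sums of other cells also differed between the B classes, given here as PEP-WT and then PEP-619WW: 3952 and 6064 CPM for 4 plasma cell genes, 1339 and 2733 for 4 neutrophil genes, and 2412 and 321 for 3 erythroid genes. Their part in these values was not tested. *Tcf7* had the lowest ratio (-0.55, -0.78 to -0.32), and passed 1.5-fold with an upper limit on UMIs of the metallothionein gene *Mt2*, at levels that fell further in B barcodes without *Cd3e* UMIs, as given above.

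**Figure D3:**
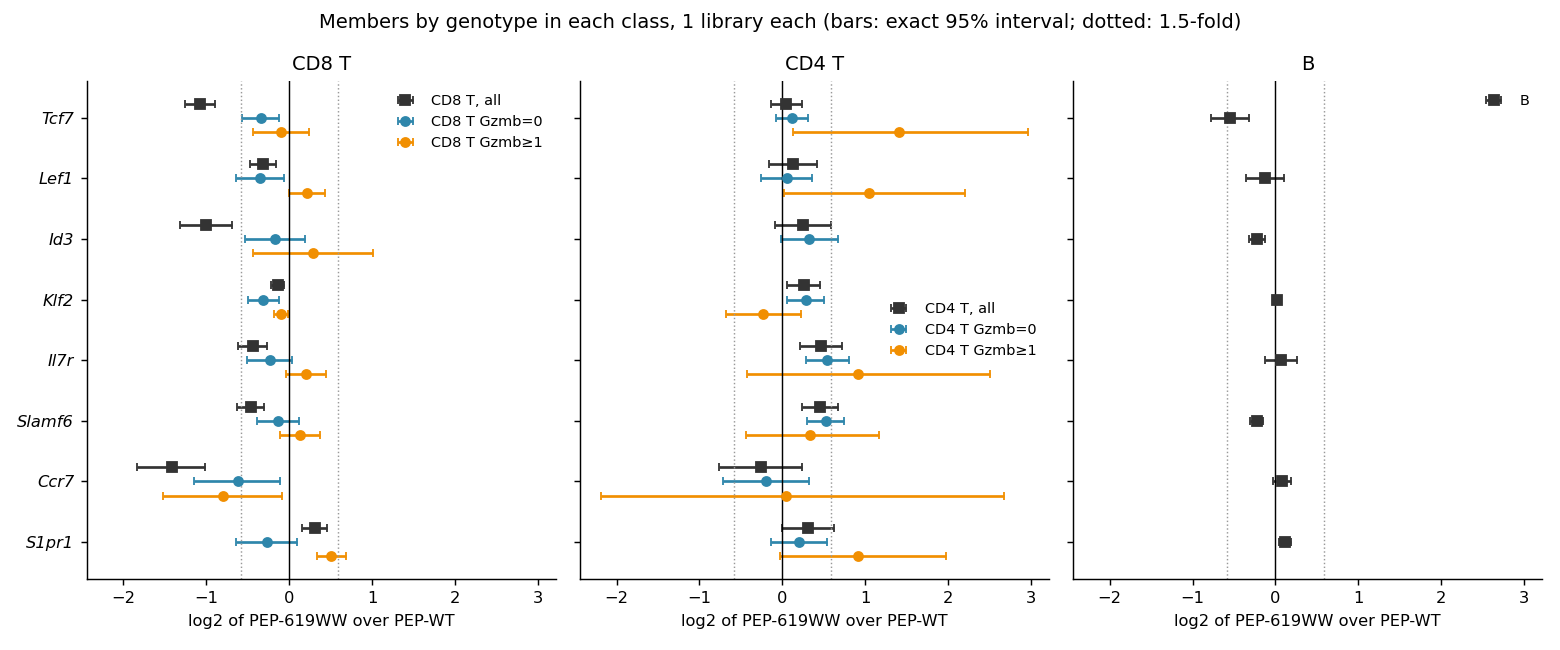
Log2 ratio of CPM in PEP-619WW over PEP-WT for each gene, in all CD8 T and CD4 T barcodes (black squares), in those without *Gzmb* (blue), in those with *Gzmb* (orange) and in B barcodes. Bars are exact 95% intervals and dotted lines mark 1.5-fold. All 8 blue points of the CD8 T panel lie left of 0, and the black points of *Ccr7*, *Tcf7* and *Id3* lie much farther left.

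Taken without the division by *Gzmb*, CD8 T cells differed more between the genotypes in *Tcf7*, *Id3*, *Ccr7*, *Slamf6* and *Il7r*. *Tcf7* was at 137 (128 to 146) in PEP-WT and 65.3 (58.8 to 72.4) in PEP-619WW, *Id3* at 45.1 (40.2 to 50.6) and 22.6 (18.8 to 26.9), and *Ccr7* at 32.7 (28.5 to 37.4) and 12.3 (9.53 to 15.6). These 3 genes were at least 1.5-fold lower, where 3.91% of 9340 genes were lower by that much and 4.3% higher, and the median of the 8 was -0.45. *Slamf6* (-0.46, -0.63 to -0.30) and *Il7r* (-0.44, -0.61 to -0.27) stayed within 1.5-fold with intervals below 0. *Lef1* (-0.32) and *Klf2* (-0.14) differed no more than in the class without *Gzmb*. Barcodes were also weighted equally, as a difference in the mean of log2(1 + UMIs per 10000), and none of the 8 reached 0.585. On that scale, which counts barcodes without a UMI, this number is not a 1.5-fold ratio. In a CPM sum alone, fewer cells with a transcript and less of it per cell cannot be told apart. *Tcf7* was detected in 34.9% of PEP-WT and 17.0% of PEP-619WW CD8 T barcodes (25.8% and 8.1% after thinning). For *Id3* the shares were 12.5% and 7.39% (6.44% and 1.9%), and for *Ccr7* 13.5% and 6.60% (8.90% and 2.81%). Those of *Lef1*, *Klf2* and *S1pr1* were higher in PEP-619WW before thinning and lower after it. The level within barcodes that held a UMI was not tested. The barcodes without *Gzmb* gave 29.0% of the CD8 T UMIs in PEP-WT and 12.5% in PEP-619WW. When the PEP-619WW classes were weighted by the PEP-WT share, their *Tcf7* level became 111.8 CPM in place of 65.3 (log2 ratio to PEP-WT -0.30 in place of -1.07), that of *Id3* 41.7 in place of 22.6 and that of *Ccr7* 20.8 in place of 12.3. *S1pr1* stayed above PEP-WT, with log2 ratios of 0.31 before and 0.27 after. In thinned barcodes it was at 191 against 189 CPM and was detected in 27.2% of PEP-619WW against 29.5% of PEP-WT barcodes. The libraries thus differed little after thinning, which also changed which barcodes passed the gates and gave each equal weight. The part of depth was not tested. All CD4 T barcodes had a median of 0.25, with no gene past 1.5-fold (7.54% of 5611 genes higher and 7.16% lower). With barcodes holding *Cd79a* or *Csf1r* kept in, *Il7r* and *Slamf6* passed 1.5-fold and the median was 0.39, and after thinning the median was -0.086 with 2 of 6 genes above 0.

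CD8 T and CD4 T barcodes without *Gzmb* were set against each other within each library. In PEP-WT *Klf2* was higher in CD8 T barcodes (0.91, 0.73 to 1.10; 6.17% of 6147 genes were at least 1.5-fold higher and 11.9% lower), and the other 7 genes lay within 1.5-fold. In PEP-619WW *Tcf7* (-0.60, -0.84 to -0.36) and *Slamf6* (-0.70, -0.97 to -0.43) were lower in CD8 T barcodes (12.4% of 4404 genes were lower and 5.56% higher). The medians were 0.23 and -0.36. *Il7r* had ratios on opposite sides of 0 with intervals that left it out (0.31, 0.07 to 0.54, in PEP-WT and -0.47, -0.77 to -0.18, in PEP-619WW).

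How many of the 8 genes a cell showed was counted after thinning to 2000 UMIs. At least 4 were detected in 34.7% of 236 PEP-WT and 21.2% of 66 PEP-619WW CD8 T barcodes without *Gzmb*, in 33.3% and 32.8% of the matching CD4 T barcodes, and in 4.45% and 1.18% of CD8 T barcodes with *Gzmb*. B barcodes reached 2.72% and 3.65%. The mean number was 2.83 and 2.09 in CD8 T barcodes without *Gzmb*, and 1.34 and 1.24 in those with it. Neutrophil barcodes showed a mean of 0.864 and 0.866, of which *Klf2* made up the greater part: it was detected in 75.8% and 81.7% of them.

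**Figure D4:**
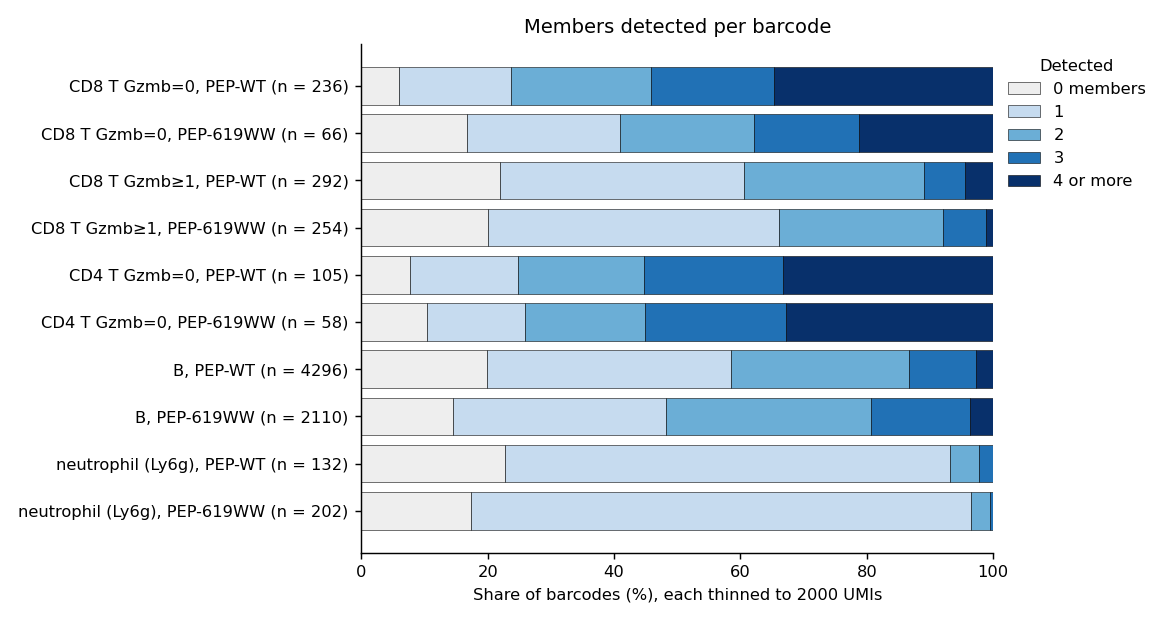
Share of barcodes (%) by the number of the 8 genes detected, from 0 (light) to 4 or more (dark), after each barcode was thinned to 2000 UMIs. Bars are classes of 1 library with the number of barcodes. The dark part is 34.7% and 21.2% in CD8 T barcodes without *Gzmb* and 4.45% and 1.18% in those with it.

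*Tcf7* marks both naive and stem-like T cells, so the 7 other genes were read in CD8 T barcodes without *Gzmb* that had a *Tcf7* UMI (276 in PEP-WT, 57 in PEP-619WW) and that had none (86 and 34). The former were deeper, with medians of 4397.5 against 3157 and 7279 against 3219.5 UMIs. *Id3* was higher beside *Tcf7* in PEP-WT (167 against 43.9, log2 ratio 1.93, 1.26 to 2.69), with 0.54 (-0.25 to 1.43) in PEP-619WW, and *Slamf6* was higher in both (0.85, 0.48 to 1.23, and 0.62, 0.04 to 1.24). *Il7r* was at 0.31 (-0.02 to 0.65) and 0.67 (0.05 to 1.34), and *Lef1* at 0.42 (0.06 to 0.78) and -0.18 (-0.75 to 0.43). Among other genes, the chemokine genes *Ccl5* (-2.27, -2.38 to -2.16, and -3.36, -3.52 to -3.19) and *Xcl1* (-1.01, -1.27 to -0.74, and -1.15, -1.69 to -0.60) were lower beside *Tcf7*, the first from the effector list and the second from the companions. *Klf2*, *S1pr1* and *Ccr7* had log2 ratios between -0.23 and 0.34 by this division. Among these, only the interval of *Klf2* in PEP-WT (0.03 to 0.48) left out 0. Those in PEP-619WW were wide for *Ccr7* (-0.91 to 1.45) and *S1pr1* (-0.94 to 0.54). In CD4 T barcodes without *Gzmb*, divided in the same way, *Slamf6* was at 0.56 (0.08 to 1.08) in PEP-WT and 1.01 (0.49 to 1.57) in PEP-619WW. *Il7r* was at -0.47 (-0.92 to 0.002) and -0.008 (-0.46 to 0.47) there, and *Lef1* at -0.31 (-0.82 to 0.23) and 0.53 (-0.14 to 1.29). *S1pr1* was at 0.62 (-0.08 to 1.40) and 1.58 (0.61 to 2.74). *Id3* was at 1.535 (0.61 to 2.63) and 0.51 (-0.21 to 1.30), and *Klf2* at 0.68 (0.20 to 1.20) and 0.21 (-0.23 to 0.68). *Ccr7* was at -0.02 (-0.88 to 0.93) and 0.71 (-0.50 to 2.22).

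The barcodes with *Tcf7* were divided further by *Ccr7*, a division chosen after the values were seen. A *Ccr7* UMI was present in 79 PEP-WT and 18 PEP-619WW CD8 T barcodes of this kind (21.8% and 19.8% of those without *Gzmb*) and absent in 197 and 39. The barcodes with *Ccr7* were shallower, with medians of 3611 against 4910 UMIs in PEP-WT and 4552 against 7881 in PEP-619WW. They held more *Il7r* (403 against 218 and 515 against 154 CPM), more *Lef1* (339 against 218 and 343 against 128) and more *Klf2* (681 against 533 and 547 against 398). *S1pr1* was at 178 against 139 (log2 ratio 0.36, -0.07 to 0.78) in PEP-WT and at 172 against 95.7 in PEP-619WW, where 21 and 38 UMIs were counted. *Id3* (99.4 against 192; -0.95, -1.48 to -0.45) and *Slamf6* (201 against 330; -0.71, -1.08 to -0.36) were lower beside *Ccr7* in PEP-WT. In PEP-619WW their ratios were -0.30 (-1.26 to 0.56) and -0.15 (-0.79 to 0.44), with intervals that included 0.

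*Il7r*, *Lef1* and *Klf2* thus lay above 0 with *Ccr7* in CD8 T barcodes of both libraries, whereas *Id3* and *Slamf6* did not. Other genes, chosen after their values were seen, were read in the same barcodes, and they did not share a direction. *Cd69* was higher with *Ccr7* in PEP-619WW (180 against 85.6, log2 ratio 1.07, 0.23 to 1.89) and lay at 0.23 (-0.20 to 0.64) in PEP-WT. *Cxcr5* lay at 0.68 (-0.53 to 1.83) in PEP-WT, with 0 and 8 UMIs in PEP-619WW. *Tox* was at 84.1 with *Ccr7* and 185 without in PEP-WT, and at 32.7 and 239 in PEP-619WW (4 and 95 UMIs). *Xcl1* was at 86.7 and 267 in PEP-WT, with 0 and 69 UMIs in PEP-619WW. *Pdcd1*, which encodes PD-1, was at 63.7 and 91.8 in PEP-WT (-0.53, -1.22 to 0.12), with 2 and 36 UMIs in PEP-619WW. CD4 T barcodes with *Tcf7* had log2 ratios on the same side of 0 for *Il7r* (1.10 in PEP-WT and 0.81 in PEP-619WW), *Klf2* (0.66 and 0.86), *Tox* (-1.22 and -1.28) and *Pdcd1* (-1.77 and -1.47), all with intervals that left out 0. *Ccl5* went opposite ways in the lineages, at -1.56 (-1.84 to -1.28) and -2.72 (-3.52 to -2.02) with *Ccr7* in CD8 T barcodes and at 1.23 (0.64 to 1.81) and 0.71 (0.26 to 1.15) in CD4 T barcodes. *Slamf6* in CD4 T barcodes was lower in PEP-WT (-0.63, -1.11 to -0.18) and lay at 0.28 (-0.08 to 0.63) in PEP-619WW.

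**Figure D5:**
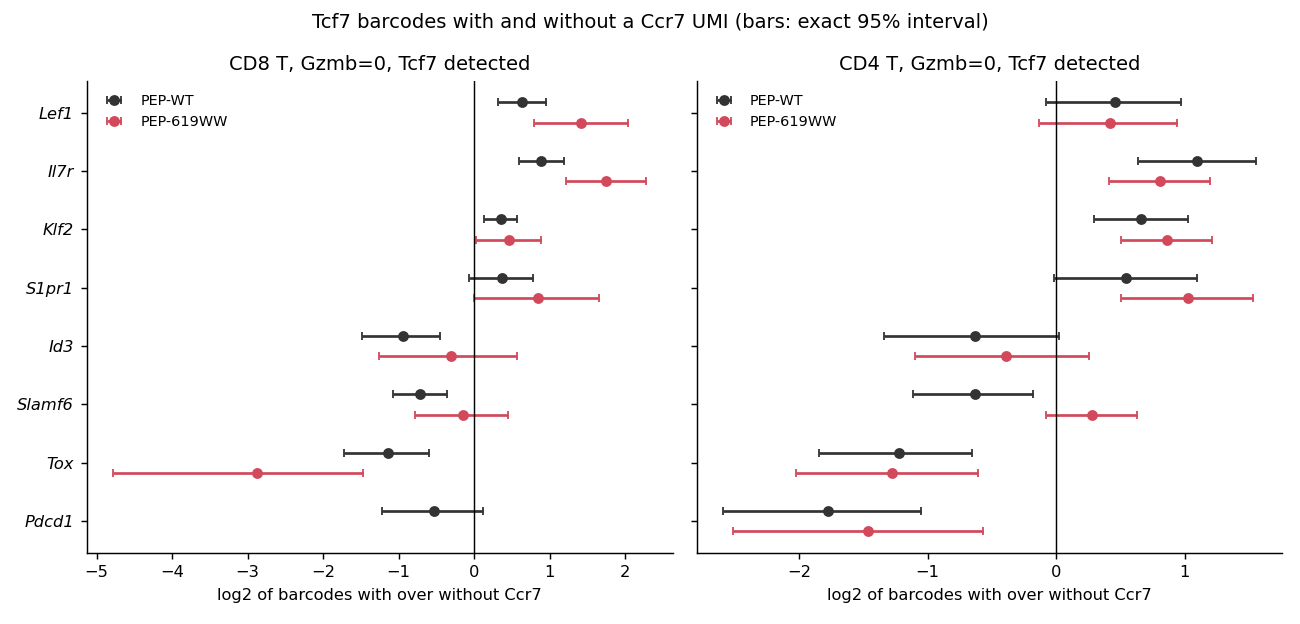
Log2 ratio of CPM in *Tcf7* barcodes with a *Ccr7* UMI over those without, among CD8 T (left) and CD4 T (right) barcodes without *Gzmb*, PEP-WT in black and PEP-619WW in red, with exact 95% intervals. *Il7r* and *Klf2* lie right of 0 and *Tox* left of it in all 4 sets. *Pdcd1* in PEP-619WW CD8 T barcodes is not drawn because 1 side held 2 UMIs.

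Over the 10 sums (5 classes in 2 libraries), which share libraries and barcodes of one sort, levels were compared gene by gene as log2(CPM + 10). *Tcf7* was most like *Il7r* (Pearson's r = 0.97) among the 8, followed by *Slamf6* and *Lef1* (both 0.89), and *Id3* was most like *Ccr7* (0.95). *Klf2* had a negative r with each of the other 7, from -0.04 with *Lef1* to -0.54 with *Id3*. Of all other genes with at least 200 UMIs, *Map4k4* (0.96), *Cox7a2l* (0.93) and *Tpt1* (0.92) were most like the mean of the 8. *Inpp4b* (0.99) and *Ikbke* (0.98) were most like *Tcf7*, and *Casc4* (0.92) and *Acp5* (0.90) most like *Klf2*. These values describe 10 points and carry no test.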

How the data were processed

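The deposited files hold raw UMI counts, without normalization, that the authors made from 10x 3' reads on mm10 with Cell Ranger (6.0.0 in the submitters' notes, another release in the study's methods) for 32285 genes, of which 32158 were matched to symbols. The barcode numbers of run 2, not those of run 1, are the ones the study's methods give. Run 1 was used here, and run 2 only as an alternative. The genes, lists and gates were chosen with earlier results of these data known.

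UMIs were summed over the barcodes of a class and divided by all UMIs of that class, per 1000000. No barcode was removed as a doublet, and no caller was run. Sums have exact Poisson intervals, shares exact (Clopper-Pearson) binomial intervals, and ratios exact conditional binomial intervals, all at 95% and for counting error only. With 1 library per genotype and run, no test was made. The intervals of sums and ratios take each UMI as independent, although the UMIs of a gene are clustered in barcodes. In PEP-619WW CD8 T barcodes without *Gzmb*, the 150 UMIs of *Il7r* came from 40 of 91 barcodes. These intervals therefore leave out the variation between cells and can be too narrow. Genes with at least 50 UMIs over both sums count as measured, and a 1.5-fold difference as higher or lower. Ratios with fewer than 3 UMIs on a side are given as counts. The text names the 8 genes in every class, members of 7 fixed lists of related genes, and the genes most alike by Pearson's r over the 10 sums. The genes read beside *Tcf7* in its further division were chosen after their values were seen. Thinning drew 2000 UMIs per barcode without replacement. The gates were read again in the drawn UMIs, so thinning also changed the barcodes of a class and gave each barcode equal weight. There were 13 alternatives and 2 added after seeing the data. The shares of all genes past 1.5-fold were computed for the main gates only. The ratio and its interval were tested on simulated Poisson sums with 200 changed genes. Such sums hold no variation between cells or libraries, so they cannot show whether the intervals are wide enough for these data. Promoter windows came from RefSeq (GRCm38.p6). Scripts ran in python 3.11.15 with scipy 1.17.1 and numpy 2.4.6, and matplotlib 3.10.9 drew the plots. Reads and flow cytometry were not analysed here, and some genes are not reported here.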

Additional observations from a re-analysis of the deposited data

Results flagged for a closer look

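Some genes lay on opposite sides of 0 in 2 classes under the same genotype comparison (log2 of PEP-619WW over PEP-WT), with both intervals leaving out 0. *Lef1* was at -0.35 in CD8 T barcodes without *Gzmb* and at 0.21 in those with it. *Klf2* was at -0.31 in CD8 T barcodes without *Gzmb* and at 0.28 in the matching CD4 T barcodes, and at -0.14 in all CD8 T and 0.26 in all CD4 T barcodes. *Slamf6* was at -0.46 in all CD8 T and 0.46 in all CD4 T barcodes, and *Il7r* at -0.44 and 0.47. After thinning, which also changed the barcodes of each class, *Lef1* in CD8 T barcodes with *Gzmb* and *Il7r* in all CD4 T barcodes lay below 0. The intervals of *Slamf6* and *Klf2* in CD4 T barcodes then included 0. With 1 library per genotype the differences between classes were not tested. Erythroid and neutrophil marker sums differed between the libraries in these classes, as given in the report, and their part was not tested.

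*Il7r* gave a signal in cells outside the compared classes. In run 2 it stood at 99.4 CPM (96.7 to 102) in the 5040 *Csf1r* barcodes of PEP-WT, with a UMI in 29.8% of them, and at 122 (118 to 126) in the 3873 of PEP-619WW, with a UMI in 25.4%. In run 1 the *Csf1r* barcodes held 8.41 and 5.42 CPM of *Il7r*, with a UMI in 2.20% and 2.24%. Median depths were 8726.5 and 6087 UMIs in run 2 and 5717 and 8052 in run 1. *Tcf7* in the same run 2 barcodes was at 0.357 and 4.61, and *Lef1* at 0.0375 and 2.16.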

How the results depend on the processing

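No paired analysis was possible because each genotype has 1 library and the labels give no replicate numbers; leaving out a replicate was not possible for the same reason. Few barcodes limit the values of CD8 T barcodes without *Gzmb* in PEP-619WW (91) and of CD4 T barcodes with it (16 and 30). Of the genotype ratios, thinning kept the direction of 36 of 46 and left 32 outside their main interval, gates of at least 2 UMIs kept 39 of 48 (13 outside), stricter exclusion of other lineages 41 of 48 (15), and run 2 kept 2 of 8 (6). Equal weights (16) and leaving out the deepest barcodes (9) each kept 50 of 55, *Cd79a* and *Csf1r* barcodes kept in 51 of 55, size factors 54 of 55, and an upper limit on *Mt2* all 55, with *Tcf7* in B barcodes then past 1.5-fold. Of the *Gzmb* ratios thinning kept 15 of 20, run 2 kept 10 of 15, *Cd79a* and *Csf1r* barcodes kept in 27 of 31, and size factors 30 of 31.

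The medians of the 8 log2 ratios and the shares below moved, and the cause was not tested. Stricter exclusion of other lineages moved the genotype median in CD8 T barcodes without *Gzmb* to -0.55 and the PEP-619WW *Gzmb* median in CD8 T barcodes to 1.14. Gates of at least 2 UMIs gave shares without *Gzmb* of 28.9% and 9.23% (CD8 T, PEP-WT and PEP-619WW) and 87.1% (CD4 T, PEP-WT) and a PEP-619WW *Gzmb* median of 1.48. With at least 3 *Gzmb* UMIs for the class with *Gzmb* the PEP-WT median was 2.52. Thinning gave shares of 44.7%, 20.6% and 98.1% in the same order, genotype medians of -0.59 (CD8 T without *Gzmb*), 0.23 (B), -1.04 (all CD8 T) and -0.086 (all CD4 T), and a PEP-619WW *Gzmb* median of 1.06. Without the 5% deepest barcodes the all CD8 T median was -0.67. Weighting barcodes equally, on another scale, gave -0.15 for all CD8 T and *Gzmb* medians of 0.71 and 0.50. It left 0 of 7 genotype calls and 14 of 20 *Gzmb* calls past 0.585, which on that scale is not a 1.5-fold ratio.

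Run 2 gave shares without *Gzmb* of 61.8% (CD8 T) and 75.4% (CD4 T) in PEP-619WW and, with 21 PEP-WT barcodes, an all CD8 T genotype median of 1.19. There *Tcf7* (2.79) and *Ccr7* (0.18) reversed in all CD8 T barcodes. *Klf2* in PEP-WT CD4 T barcodes reversed to 0.012 for the *Gzmb* ratio with *Cd79a* and *Csf1r* barcodes kept. Values needing under 10 barcodes or 3 UMIs were not computed.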

Other observations

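Among cells outside the T and B classes, *Klf2* was highest in neutrophil barcodes (*Ly6g*), at 1252 CPM (1175 to 1333) in PEP-WT and 1401 (1336 to 1468) in PEP-619WW. NK barcodes (*Ncr1*, 60 and 29) held 552 (458 to 659) and 673 (540 to 828), and *Csf1r* barcodes 500 (480 to 519) and 485 (464 to 507). Plasma cell barcodes (*Jchain* and *Sdc1*) were low, at 86.8 and 75.3. NK barcodes also had *Tcf7*, with 23 and 8 UMIs (104 and 60.5 CPM), and *Il7r*, with 27 and 6 UMIs, while *Slamf6* had 0 and 3 UMIs.

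*Id3* was found in *Csf1r* barcodes of run 1 at 35.8 CPM (30.8 to 41.4) in PEP-WT and 16.0 (12.3 to 20.4) in PEP-619WW. In run 2 the 319 CD8 T barcodes of PEP-619WW held 139 CPM of *Tcf7*, 261 of *Il7r*, 84.9 of *Ccr7* and 168 of *Klf2*.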
